A study of Mus musculus with 4 samples.

Results

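The cells described here are endothelial cells of the mouse descending aorta in which no transcript of Klk10, Stmn2 or Adra2a was counted. They were 564 of the 2567 gated endothelial cells of 2 descending libraries, and of 14831 cells past the quality limits in all 4 libraries of the series. Single-cell RNA was captured with droplets, and each value is a number of unique molecular identifiers (UMIs), that is of counted RNA molecules. The descending libraries, called a and b, held intimal cells of C57BL/6 mice labelled aged, scraped from the opened aorta after trypsin, and each pooled 6 mice. A young arch library pooled 8 C57BL/6 mice and is used for comparison, and an aged adventitial library entered only the counts of cells. No genotype, treatment or sex is given, and no age beyond aged and young.

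Cells with under 200 genes or over 10% mitochondrial UMIs were dropped. A kept cell was gated as endothelial with at least 3 UMIs of Pecam1 and Cdh5 together, 0 of the leukocyte gene Ptprc, and under 15 of the fibroblast genes Dcn, Col1a2 and Col3a1 together. Gated cells with 0 UMIs of Stmn2, Adra2a and Klk10 are called negative and those with at least 1 are called positive. There were 301 negative and 1090 positive cells in library a, and 263 negative and 913 positive cells in library b. The cells were chosen by the measured UMIs of these 9 genes, so none of the 9 is a result. The libraries shared 7 barcodes, of which 2 belonged to gated cells and 0 to negative cells.

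Arterial endothelium lines the vessel wall, sets vascular tone through nitric oxide, seals the wall with tight junctions and senses the shear of flowing blood. Steady laminar flow keeps genes such as Klf2, Klf4 and Nos3 high, whereas disturbed flow favours growth factor and adhesion genes. Klk10 encodes a secreted kallikrein-related peptidase known in mouse and human endothelium for higher levels under stable flow, Adra2a an alpha-2 adrenergic receptor, and Stmn2 a microtubule-binding stathmin best known in neurons.

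Depth has to be read first, because a cell with few UMIs is more likely to show 0 UMIs of 3 genes. Negative cells had a median of 3387 UMIs in library a and 3309 in library b, against 6158.5 and 5695 in positive cells. The medians of genes detected were 1586 and 1584 in negative cells and 2461 and 2392 in positive cells. Negative cells were therefore the shallower class in both libraries, with a median depth of 0.55 and 0.581 times that of the positive cells. Median mitochondrial shares lay close together, at 3.66% and 3.21% in negative cells and 3.28% and 2.95% in positive cells.

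Negative cells made up 21.6% (95% exact Clopper-Pearson interval 19.5 to 23.9) of gated cells in library a and 22.4% (20.01 to 24.9) in library b. These intervals cover counting error only. By quartiles of total UMIs, the negative share in library a was 41.7%, 23.6%, 15.9% and 5.46% from the shallowest to the deepest cells. In library b it was 37.8%, 29.2%, 18.4% and 4.08%. The share fell at each step in both libraries, so many zeros were found in cells in which few molecules were counted. Levels below are given as CPM, the UMIs of a gene per 1000000 UMIs of the summed cells. In positive cells the 3 genes together reached 1072 and 1165 CPM, and at those levels a cell of the median negative depth would hold 3.63 and 3.86 UMIs of them. That level is set by the rule, which removes every cell at 0 from the positive class. A zero count thus marks a low or uncounted level of these genes, and the absence of their RNA from a cell was not detectable at this depth.

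**Figure D1:**
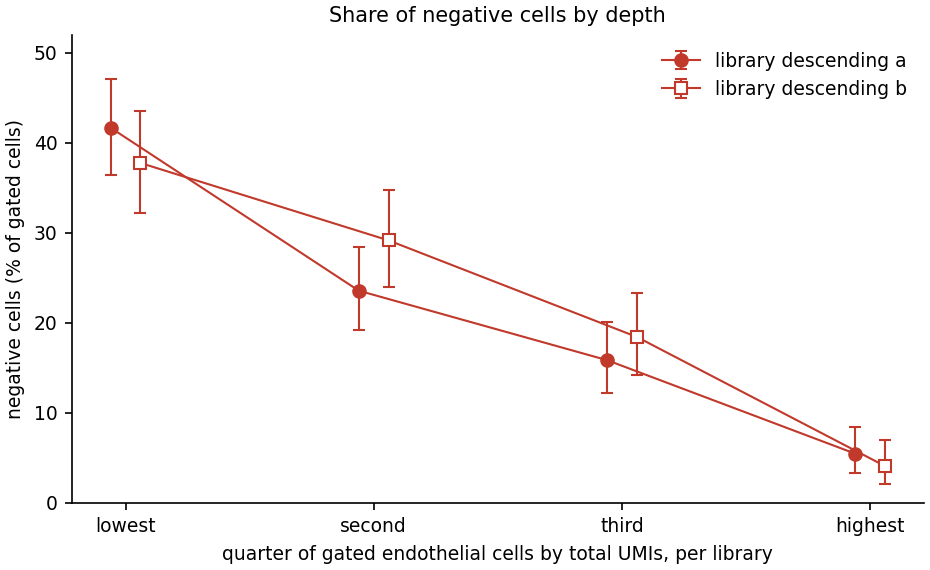
Share of negative cells among gated endothelial cells (percent, with 95% exact intervals) by quartile of total UMIs, for libraries descending a (filled circles) and b (open squares). The share is 41.7% and 37.8% in the shallowest cells and 5.46% and 4.08% in the deepest.

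The values on either side of the limits describe how gradual the split is. Claudin 5 (Cldn5) stood at 510 CPM in library a cells with 0 UMIs of the 3 genes, at 913 in cells with 1 UMI and at 1440 in cells with 2 or more. In library b the same steps gave 544, 849 and 1561. Igfbp7 ran the other way, at 330, 265 and 101 CPM in library a and at 374, 278 and 137 in library b. Cells with 1 UMI, of which there were 198 and 172, thus lay between the negative cells and the rest for both genes. They lay between in depth as well. The medians over the same steps were 3387, 4193.5 and 6924 UMIs in library a, and 3309, 3550.5 and 6518 in library b. Across the endothelial limit, the 10 and 6 cells with 3 UMIs of Pecam1 and Cdh5 had 290 and 130 CPM of Cldn5, and the 21 and 13 cells with 2 had 186 and 117. Gated cells with 10 to 14 fibroblast-gate UMIs numbered 18 and 24 and had 149 and 45.8 CPM of Cldn5. The 10 and 13 cells just outside that limit, with 15 to 19 such UMIs, had 83.6 and 113.

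The negative cells kept endothelial RNA that the gate did not use. Egfl7, a secreted protein of endothelium, was counted in 98.3% and 99.6% of negative cells of libraries a and b, against 99.5% and 99.0% of positive cells. In cells with Ptprc and without Pecam1 and Cdh5 (23 and 21 cells, median 3928 and 2831 UMIs), which should lack it, Egfl7 was counted in 56.5% and 47.6%. Thinned to 3000 UMIs per cell, which left out 116 and 113 negative and 165 and 191 positive cells, Egfl7 was found in 95.1% and 96.7% of negative cells and in 99.4% and 99.4% of positive cells. In the 14 and 9 Ptprc cells left after thinning, Egfl7 was found in 35.7% and 66.7%. Its summed level was 1670 and 1839 CPM in negative cells and 1898 and 1876 in positive cells (log2 fold change -0.07 ± 0.0766 SE, adjusted p = 0.727, edgeR, by the test described next).

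Negative and positive cells were compared on counts summed per library and class with edgeR's quasi-likelihood test, the library as a block and Benjamini-Hochberg adjustment over 11015 genes at a threshold of 0.05. Log2 fold changes are negative over positive. The test called 361 genes higher (3.28% of those tested) and 361 genes lower (3.28%) in negative cells, 6.55% in all, and the median log2 fold change over all tested genes was 0.0033. Among cells of at least 5000 UMIs it called 228 higher (2.16% of those tested) and 201 lower (1.9%), 4.06% in all. Without the library block the counts were 46 higher and 27 lower, and DESeq2 gave 66 and 67. Of 16 endothelial genes, all tested, 2 were higher, Emcn and Eng, and 2 lower, Cldn5 and Vwf, with a median log2 fold change of -0.06. The labels do not say that the 2 pools are independent beyond their 6 mice each, so variation between them may be technical only. With the library as a block, the p-values rest on how far the class difference varies between the 2 libraries. That variation was estimated with 1 residual degree of freedom beside 34.5 prior ones, which are borrowed from other genes. A gene on which the libraries disagree can thus pass, as Hba-a2 did (log2 ratios 2.79 in a and -0.61 in b, adjusted p = 0.00251, edgeR).

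Of 12 genes of connexins and junctions, all tested, 3 fell and 0 rose, against 3.28% each way over all tested genes. The 3 were Cldn5, Gja5 and Gjc1 (-0.68). Cldn5, the main claudin of endothelial tight junctions (ENSMUSG00000041378, GRCm38 chromosome 16, 18776847 to 18778262, plus strand), stood at 510 and 544 CPM in negative cells of libraries a and b, against 1374 and 1469 in positive cells. Both negative values lay below both positive values, as in 23.7% of all tested genes, and the level fell by 1.40 on the log2 scale (± 0.0828 SE, adjusted p = 4.27e-15, edgeR). Thinned to 3000 UMIs, Cldn5 was counted in 45.9% and 42.7% of negative cells and in 81.9% and 81.7% of positive cells. Unthinned shares were 60.5% and 54.4% in negative cells, 88.3% and 86.7% in positive cells and 26.1% and 14.3% in the Ptprc cells. After thinning, Cldn5 was counted in 35.7% and 0% of the Ptprc cells, of which only 14 and 9 were left. In each depth quartile of both libraries the negative level of Cldn5 lay below the positive one. It was 750, 464, 390 and 394 CPM in negative cells of library a, against 1470, 1389, 1373 and 1359 in positive cells.

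Igfbp7, a secreted insulin-like growth factor binding protein of the vessel wall, rose in the same cells. Its gene (ENSMUSG00000036256, GRCm38 chromosome 5, 77349240 to 77408041, minus strand) gave 330 and 374 CPM in negative cells, against 122 and 155 in positive cells. Both negative values lay above both positive values, as in 16.6% of all tested genes, and the log2 fold change was 1.39 (± 0.0725 SE, adjusted p = 1.6e-16, edgeR). Thinned to 3000 UMIs, Igfbp7 was counted in 49.2% and 52% of negative cells and 24.2% and 29.5% of positive cells. Unthinned, the shares were 52.2% and 54.0% in negative cells and 40.8% and 46.4% in positive cells. The thinned share was 14.3% and 44.4% in the Ptprc cells, of which only 14 and 9 were left, and the unthinned one 17.4% and 28.6%. By depth quartile the Igfbp7 level was 268, 382, 387 and 255 CPM in negative cells of library a, against 111, 131, 144 and 110 in positive cells.

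**Figure D2:**
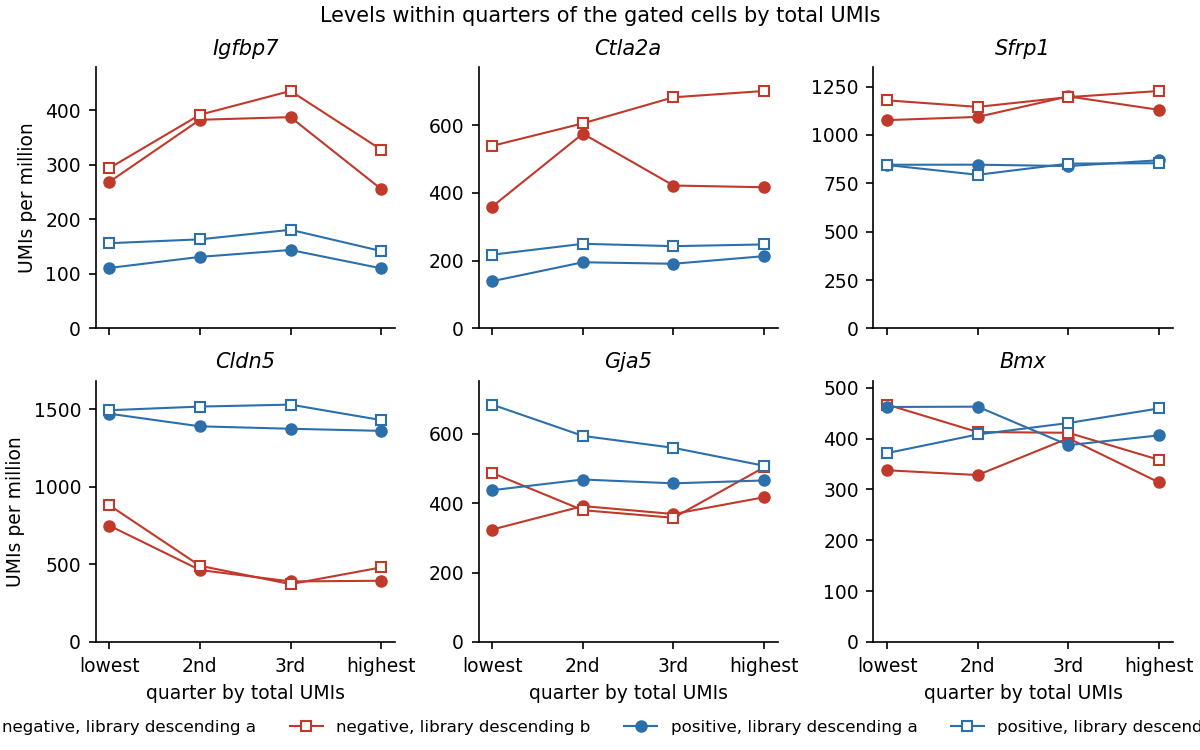
CPM of 6 genes in negative cells (red) and positive cells (blue), summed within quartiles of total UMIs, for libraries descending a (filled circles) and b (open squares). Igfbp7 and Ctla2a lie higher and Cldn5 lower in negative cells in every quartile, whereas the Bmx lines cross.

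G0s2, Ctla2a, Emcn, Frzb and Nrp1 rose as well. Frzb, a secreted Wnt antagonist, had 191 and 216 CPM in negative cells and 103 and 106 in positive cells (log2 fold change 0.99 ± 0.084 SE, adjusted p = 6.07e-11, edgeR). Emcn, the sialomucin endomucin of capillary and venous endothelium, had 276 and 229 in negative cells against 150 and 109 in positive cells (0.99 ± 0.0792, adjusted p = 1.16e-11). Nrp1, a co-receptor for VEGF and semaphorins, had 860 and 649 in negative cells against 514 and 394 in positive cells. G0s2, an inhibitor of fat breakdown, had 204 and 254 in negative cells against 75.3 and 96.8 in positive cells (1.45 ± 0.083, adjusted p = 2.12e-15). Ctla2a, a cysteine protease inhibitor, had 443 and 626 in negative cells against 200 and 245 in positive cells (1.29 ± 0.0799, adjusted p = 1.63e-14). In each of these genes both negative values lay above both positive values, as in 16.6% of all tested genes. The 5 negative cells with most Frzb held 14.98% and 17.3% of its negative UMIs, and for Igfbp7 these shares were 16.4% and 14.03%.

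Scarcer genes rose by more. Tac2, a tachykinin precursor, had 48.0 and 59.2 CPM in negative cells and 13.6 and 15.2 in positive cells (log2 fold change 1.92 ± 0.18 SE, adjusted p = 5.99e-10, edgeR). Ahsg, the secreted glycoprotein fetuin-A known from the liver as an inhibitor of calcification, had 85.2 and 125 in negative cells and 25.8 and 32.9 in positive cells (1.86 ± 0.135, adjusted p = 9.47e-13). Dlgap1, a scaffold protein known from synapses, had 30.2 and 45.8 in negative cells and 9.82 and 14.2 in positive cells. For these 3 genes both negative values lay above both positive values, as in 16.6% of all tested genes. They were named as large rises in both libraries, a choice that favours such a gap. The 5 negative cells with most Tac2 held 41.9% and 27.4% of its negative UMIs.

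The genes that fell named a second set. Wfdc1, a secreted protease inhibitor, had 7.75 and 13.4 CPM in negative cells and 40.8 and 56.3 in positive cells (log2 fold change -2.18 ± 0.235 SE, adjusted p = 1.32e-08, edgeR). The growth factor Igf2 had 6.97 and 17.2 in negative cells and 54.8 and 52.2 in positive cells, and the short-chain collagen Col8a1 24.8 and 14.3 in negative cells against 99.9 and 62.5 in positive cells. Flt1, the VEGF receptor 1, had 39.5 and 23.9 in negative cells and 80.9 and 86.8 in positive cells. Podxl, an apical sialomucin, had 219 and 199 in negative cells against 413 and 402 in positive cells, and the ferroxidase Cp had 185 and 113 in negative cells against 432 and 292 in positive cells. In each of these genes both negative values lay below both positive values, as in 23.7% of all tested genes. Apart from Podxl they were named as large falls in both libraries, a choice that favours such a gap. Adgrg1, Pthlh, Fam135a, Lmo1, F2rl1 and Gm7694 fell by between 1.26 and 1.64 on the log2 scale. Serpina1b, Serpina1d and Serpina1e fell as well, but these near-identical copies share reads and their separate counts are uncertain.

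**Figure D3:**
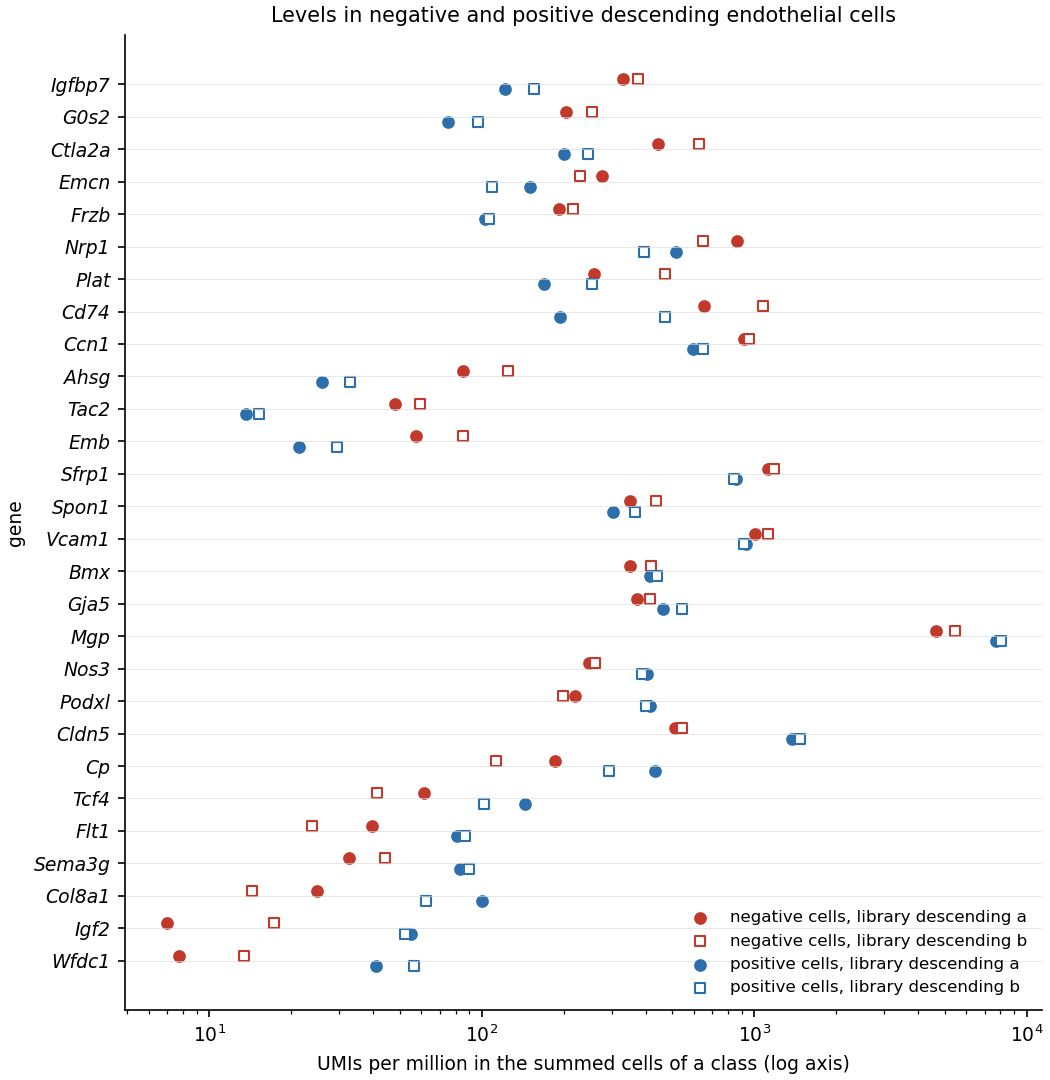
CPM (log axis) of 28 genes in the summed negative cells (red) and positive cells (blue) of libraries descending a (filled circles) and b (open squares). From top to bottom, broadly raised genes, the 5 given markers and lowered genes are shown. For Cldn5 the negative sums lie at 510 and 544 and the positive sums at 1374 and 1469.

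Among 111 named genes that passed the threshold, which do not include genes named only as leaders of a cluster, 14 did so in the same direction in each of 14 alternative fits that gave a test. The 5 higher ones were Tac2, Ahsg, Dlgap1, Frzb and Igfbp7. The 9 lower ones were Wfdc1, Igf2, Col8a1, Adgrg1, Pthlh, Cldn5, Flt1, Fam135a and Podxl. Igf2 had log2 ratios of -2.97 in library a and -1.60 in library b. Of the 111, 23 had a fold that leaving out a library moved by over 1.5 times. The other calls hold for the fit described above, and without the library block 84 called genes among the named ones did not pass.

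Of the 5 markers given for these cells, none set them apart from the positive cells by a wide margin. Sfrp1, a secreted Wnt antagonist, had 1125 and 1179 CPM in negative cells and 856 and 845 in positive cells (log2 fold change 0.47 ± 0.08 SE, adjusted p = 7.78e-05, edgeR). Spon1, the matrix protein spondin 1, had 351 and 434 in negative cells and 304 and 366 in positive cells (0.26 ± 0.0791, adjusted p = 0.0369). Its groups overlapped, and the Spon1 call was lost with DESeq2 (adjusted p = 0.548), among cells of at least 5000 UMIs (0.123) and after thinning. Vcam1, an adhesion molecule for leukocytes, had 1005 and 1121 in negative cells against 935 and 919 in positive cells and did not pass (adjusted p = 0.0952). It passed without the 2 small clusters described below (0.27, adjusted p = 0.0187), an alternative added after the data were seen. Among cells of at least 5000 UMIs Vcam1 did not pass (adjusted p = 0.105), and with at most 1 fibroblast UMI its direction turned. The arterial connexin Gja5 fell, to 370 and 413 in negative cells against 462 and 543 in positive cells (-0.32 ± 0.0818, adjusted p = 0.00939), and was not called in the deeper cells (adjusted p = 0.204). Bmx, a kinase of arterial endothelium, had 349 and 418 in negative cells against 413 and 440 in positive cells and did not pass (adjusted p = 0.491). Thinned to 3000 UMIs, Sfrp1 was counted in 88.1% and 89.3% of negative cells and 80.9% and 84.2% of positive cells, so both classes carried it.

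Fibroblast RNA has to be read within the limit that the gate sets. The fibroblast genes of the gate summed to 687 and 839 CPM in negative cells and 361 and 385 in positive cells, but are no result. Their limit of under 15 UMIs allows a higher CPM in the shallower negative cells. Of 12 other fibroblast genes, all tested, 2 were higher, against 3.28% of all tested genes. The 2 were Lum (1.87) and Gsn (0.28 on the log2 scale). The summed levels of the 12 were 1517 and 1789 in negative cells against 1393 and 1742 in positive cells. The 5 negative cells with most Lum held 38.8% and 60.8% of its negative UMIs. With the gate lowered to at most 1 fibroblast UMI, which left 130 and 117 negative and 506 and 388 positive cells, 92 genes were higher and 75 lower. Under that gate Cldn5 (-1.02), Igfbp7 (1.32), Frzb (1.14), Nrp1 (0.62) and Plat (0.92) were still called, whereas Emcn (0.60, adjusted p = 0.158), Sfrp1 (0.40, adjusted p = 0.0662) and Thbs1 (0.73, adjusted p = 0.0916) were not. The part of fibroblast RNA in the other differences was not tested further.

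Genes of blood cells were higher too. Of 11 macrophage markers 9 were tested and 9 were higher, against 3.28% of all tested genes, with a median log2 fold change of 1.89. The summed levels of the 11 were 1028 and 592 CPM in negative cells against 217 and 217 in positive cells. No macrophage marker was at 0. The lysozyme gene Lyz2 had 364 and 319 in negative cells against 68.3 and 74.2 in positive cells. The 5 negative cells with most Lyz2 and C1q RNA held 80.5% and 67.0% of those UMIs in libraries a and b. All 5 red cell genes were higher in the fit, but the 2 libraries differed. Haemoglobin RNA reached 19397 CPM in negative cells and 2863 in positive cells of library a. In library b it was the lower in negative cells, at 694 against 1011 in positive cells. The 5 highest negative cells held 84.2% of the haemoglobin UMIs of negative cells in library a and 6.19% in library b. Ccl5, a chemokine of lymphocytes, had the largest fold change among the named genes (3.65), and its 5 highest negative cells held 93.8% and 95.4% of its negative UMIs. Without 2 small clusters described below, 0 macrophage and 0 red cell genes were called, and over all genes 244 were higher (2.25%) and 255 lower (2.35%), 4.6% together.

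Class II antigen presentation genes were still called higher without those clusters. Of 7 MHC genes 5 were higher, against 3.28% of all tested genes. Cd74, the class II invariant chain, had 651 and 1078 CPM in negative cells and 193 and 471 in positive cells (log2 fold change 1.5 ± 0.0945 SE, adjusted p = 1.97e-14, edgeR). Both negative values lay above both positive values, as in 16.6% of all tested genes, and library b was the higher one in each class. Without the small clusters the Cd74 fold change was 1.14 (adjusted p = 8.26e-09). H2-Aa, H2-Ab1 and H2-Eb1, whose negative library a and positive library b values overlapped or nearly met, rose by 0.97, 0.87 and 1.1, and the class I gene H2-K1 by 0.30. In library a 9.97% of negative and 7.98% of positive cells held at least 10 class II UMIs, and in library b 28.9% of negative and 24.97% of positive cells. The 5 highest negative cells held 42.7% of class II UMIs in library a and 13.9% in library b, and for Cd74 alone 56.2% and 16.3%. In library a, clusters 1 and 3 described below had 252 and 353 CPM of Cd74 in negative cells against 180 and 296 in positive cells. In library b these values were 782 and 1136 in negative cells against 362 and 590 in positive cells.

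Of 15 disturbed-flow genes 13 were tested, 7 were higher and 3 lower, against 3.28% each way over all tested genes. The median log2 fold change was 0.41. Ccn1, a matricellular protein, had 919 and 958 CPM in negative cells and 597 and 645 in positive cells (0.63 ± 0.0809, adjusted p = 5.55e-07). Bmp4, a growth factor, had 802 and 725 in negative cells against 565 and 520 in positive cells, and the vasoconstrictor precursor Edn1 had 356 and 255 in negative cells against 259 and 194 in positive cells. Ccn2 (1.49), the thrombospondin Thbs1 (0.68), the adhesion molecule Icam1 (0.41) and the protease Ctsl (0.31) rose as well. By library the log2 ratio of Ccn2 was 0.63 in a and 2.06 in b, where 5 cells held 50% of its negative UMIs, and that of Thbs1 was 0.35 in a and 0.95 in b. Timp3, an inhibitor of metalloproteinases, the collagen cross-linker Lox and fibronectin (Fn1) fell, with log2 fold changes of -0.52, -0.62 and -0.46. The direction in which disturbed flow moves each gene of the list was not used in these counts. For Ccn1 and Bmp4 both negative values lay above both positive values, as in 16.6% of all tested genes. For Edn1 negative library b (255) lay below positive library a (259).

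Of 14 laminar-flow genes, all tested, 0 were higher and 5 lower, against 3.28% each way over all tested genes. The median log2 fold change was -0.25. Nos3, the endothelial nitric oxide synthase, had 248 and 261 CPM in negative cells and 404 and 386 in positive cells (-0.61 ± 0.0827, adjusted p = 1.85e-06). Heg1, a junctional receptor, had 1001 and 920 in negative cells against 1352 and 1378 in positive cells. Palmd (-0.41), Gja5 (-0.32) and Klf4 (-0.29) fell as well. Klf2, the other flow-induced Krüppel-like factor, had 2531 and 2107 in negative cells against 2796 and 2545 in positive cells and did not pass (-0.17, adjusted p = 0.187). Klk10, which helped to choose the cells, is itself known as a gene of stable flow.

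**Figure D4:**
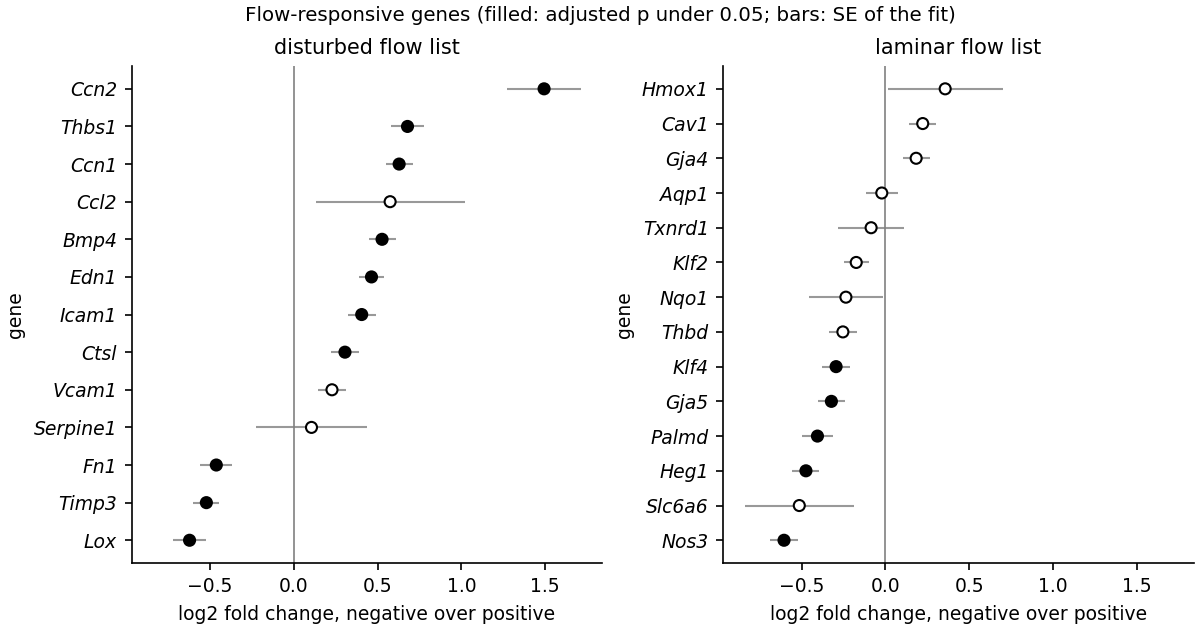
Log2 fold change of negative over positive cells with its standard error for the tested genes of the disturbed-flow list (left) and the laminar-flow list (right). Filled points passed the threshold. In the left panel 7 genes are higher and 3 lower, and in the right panel 0 are higher and 5 lower.

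Of 22 matrix genes 20 were tested, 8 were lower and 0 higher, against 3.28% each way over all tested genes. Mgp, the matrix Gla protein that binds calcium and BMPs, had 4627 and 5446 CPM in negative cells and 7677 and 8012 in positive cells (log2 fold change -0.61 ± 0.0664 SE, adjusted p = 1.58e-08, edgeR). Elastin (Eln) had 1186 and 817 in negative cells against 1704 and 1315 in positive cells, and the elastic-fibre protein Fbln5 had 407 and 264 in negative cells against 501 and 516 in positive cells. Col4a1 (-0.37), Col18a1 (-0.88), Col8a1 (-2.02), Fn1 (-0.46) and Cytl1 (-0.20) fell as well. The list's median log2 fold change was -0.19, and its summed level was 21910 and 27319 in negative cells against 28468 and 33928 in positive cells. Without the small clusters 5 of 20 were lower, and among cells of at least 5000 UMIs 4 of 20.

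Arterial identity genes were mixed. Of 16, 2 were higher and 7 lower, against 3.28% each way over all tested genes. Nrp1 and the chemokine Cxcl12 rose, by 0.76 and 0.64. Gja5, Sox17, Notch4, Sema3g, Gkn3, Fbln5 and Mecom fell, of which Sema3g, a secreted semaphorin, fell most, to 32.5 and 43.9 CPM in negative cells against 82.8 and 89.7 in positive cells. Of 14 Notch genes tested 3 were lower, the ligand Dll1 (-0.73) and the receptors Notch4 (-0.49) and Notch1 (-0.35), and 0 were higher. Among 25 transcription factors 6 were lower and 0 higher, led by Tcf4, with 61.2 and 41.1 in negative cells against 144 and 102 in positive cells. Of 18 Hox genes tested Hoxa7 (-0.39) alone passed, and it was called in 5 of 14 alternatives. Of 7 proliferation genes tested 0 passed, and both counts lie near the 6.55% called over all genes.

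Of 19 Wnt modulators and targets 12 were tested, 6 were higher and 0 lower, against 3.28% each way over all tested genes. The median log2 fold change was 0.18. The 6 higher genes were Sfrp1, Sfrp2, Frzb, Dkk3, Rspo3 and Spon1, of which Sfrp1 and Spon1 are also given markers. Among cells of at least 5000 UMIs 4 of 8 tested were higher. Spon1 and Dkk3 were called in 6 and 8 of 14 alternatives. Sfrp2 had 75.1 and 28.6 CPM in negative cells against 14.2 and 13.3 in positive cells, but 5 cells held 78.4% of its negative UMIs in library a and 33.3% in library b. In the BMP pathway Bmp4, Id2, Id3 and Smad6 rose, and Id1, Acvrl1 and Ltbp4 fell. Id2, an inhibitor of transcription, had 397 and 465 in negative cells against 231 and 313 in positive cells.

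Genes of clotting control differed in both directions. The fibrinolytic activator Plat had 257 and 470 CPM in negative cells and 168 and 254 in positive cells (log2 fold change 0.79 ± 0.0785 SE, adjusted p = 2.34e-09, edgeR). Negative library a (257) stood just above positive library b (254). Inside the clusters described below the direction of the Plat difference varied. The protein C receptor Procr had 397 and 429 in negative cells against 267 and 301 in positive cells, and the coagulation inhibitor Tfpi rose by 0.71. Von Willebrand factor (Vwf) fell, to 845 and 864 in negative cells against 1115 and 1072 in positive cells (-0.32, adjusted p = 0.00802), and the thrombin receptor F2r rose by 0.50.

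Of 10 smooth muscle genes 7 were tested, 3 were higher and 1 lower, against 3.28% each way over all tested genes. Acta2, smooth muscle actin, had 79.8 and 175 CPM in negative cells and 61.2 and 36.9 in positive cells, and 5 cells held 73.8% of its negative UMIs in library b. Its log2 ratio was 0.38 in library a and 2.25 in library b. Mylk, myosin light chain kinase, went the other way, with 24.8 and 17.2 in negative cells against 55.6 and 42.5 in positive cells. Of 8 pericyte genes 1 was tested and 0 passed. Adipocyte genes were at 0 in negative cells for 6 of 6, and mesothelial genes for 4 of 6. Of 18 early response genes 4 were higher, Jun (0.30), Ier2 (0.34), Ier3 (0.27) and Hspa8 (0.32), and 0 lower.

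To describe how the negative cells vary, all 2567 gated cells were clustered without the 9 gate genes, which gave 6 clusters. Cluster genes describe the cells that were clustered and are no test. Negative cells were found in each, at very different shares. Cluster 1, led by Pla2g5, Nkx2-3, Plat and Calcrl, held 156 of the 301 negative cells of library a and 125 of the 263 of library b. They made up 34.6% and 30.2% of its cells. Its median depth was low, at 3622 and 3036.5 UMIs.

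Cluster 3, led by G0s2, Frzb, Ctla2a and Thbs1, was the deepest of the large clusters, with medians of 7829 and 7219 UMIs. It still held 29.5% and 30.3% negative cells, 72 and 102 in number. In the shallowest depth quartile 26 of its 35 cells were negative, 74.3% (95% exact interval 56.7 to 87.5), and in the deepest 18 of 226, 7.96% (4.79 to 12.3). Cluster 2, led by Col8a1, Coch, Mylk, Igf2 and Sost, had 25 of 538 and 5 of 300 negative cells, 4.65% and 1.67%. Its median depth, 6335.5 and 6548 UMIs, lay below that of cluster 3. In the shallowest quartile 17 of its 157 cells were negative, 10.8% (6.44 to 16.8), and in the deepest 3 of 279, 1.08% (0.222 to 3.11). In all 4 quartiles of total UMIs the share of negative cells was higher in cluster 3 than in cluster 2.

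Cluster 4, led by Aqp1, Tmem45a, Dlx5 and Fxyd6, held 27 of 121 and 26 of 113 negative cells, 22.3% and 23.0%. Its negative cells had 1534 and 2229 CPM of the water channel Aqp1, against 1564 and 2650 in its positive cells. In the negative cells of cluster 3 Aqp1 was at 87.7 and 118. Cluster 5 (29 cells in library a and 1 in library b), led by the lymphatic genes Ccl21a and Mmrn1 and by haemoglobin genes, held 14 negative cells, all from library a. In the finer clustering described below, the group led by Ccl21a and Mmrn1 held 4 negative cells among 15 in library a and 0 of 1 in library b. Cluster 6 (8 and 11 cells), led by macrophage genes such as F13a1, C5ar1 and Lyz2, held 7 and 5. These are the 2 small clusters left out above, an alternative added after the data were seen, and together they held 26 of the 564 negative cells.

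Inside clusters 1, 3 and 4 the sums of Cldn5 were lower and those of Igfbp7 higher in negative cells of both libraries. In cluster 3 Cldn5 was at 305 and 348 CPM in negative cells against 608 and 682 in positive cells, and in cluster 4 at 404 and 549 in negative cells against 2055 and 1629 in positive cells. Igfbp7 in cluster 1 was at 291 and 339 in negative cells against 143 and 162 in positive cells. In cluster 2 of library a, with 25 negative cells, the gaps were smaller: Cldn5 was at 1293 in negative cells against 1567 in positive cells, and Igfbp7 at 73.4 in negative cells against 57.3 in positive cells. Tcf4 was at 37.4 and 36.2 in negative cells of cluster 1 against 36.9 and 32.2 in its positive cells, and in cluster 2 at 220 in negative cells of library a against 215 in positive cells. Col8a1 in cluster 2 of library a was at 165 in negative cells and 174 in positive cells. In cluster 1 Col8a1 was at 5.90 and 11.1 in negative cells against 19.8 and 18.5 in positive cells. In cluster 3 it was at 6.93 and 10.9 in negative cells against 19.2 and 21.9 in positive cells. In cluster 4 it was at 52.4 and 31.1 in negative cells against 56.4 and 48.0 in positive cells. The negative sums in clusters 1, 3 and 4 rest on 3 to 7 UMIs each. In cluster 4 Tcf4 stood at 67.3 and 104 in negative cells against 155 and 129 in positive cells. Plat in cluster 1 was at 340 and 484 in negative cells against 365 and 433 in positive cells. In cluster 3 Plat was at 261 and 533 in negative cells against 256 and 347 in positive cells. In cluster 4 it was lower in negative cells, at 97.3 and 166 against 182 and 236. In cluster 2 of library a it was higher in negative cells, at 128 against 54.6. Cluster 2 held 47.1% and 32.3% of positive cells but 8.31% and 1.90% of negative cells.

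**Figure D5:**
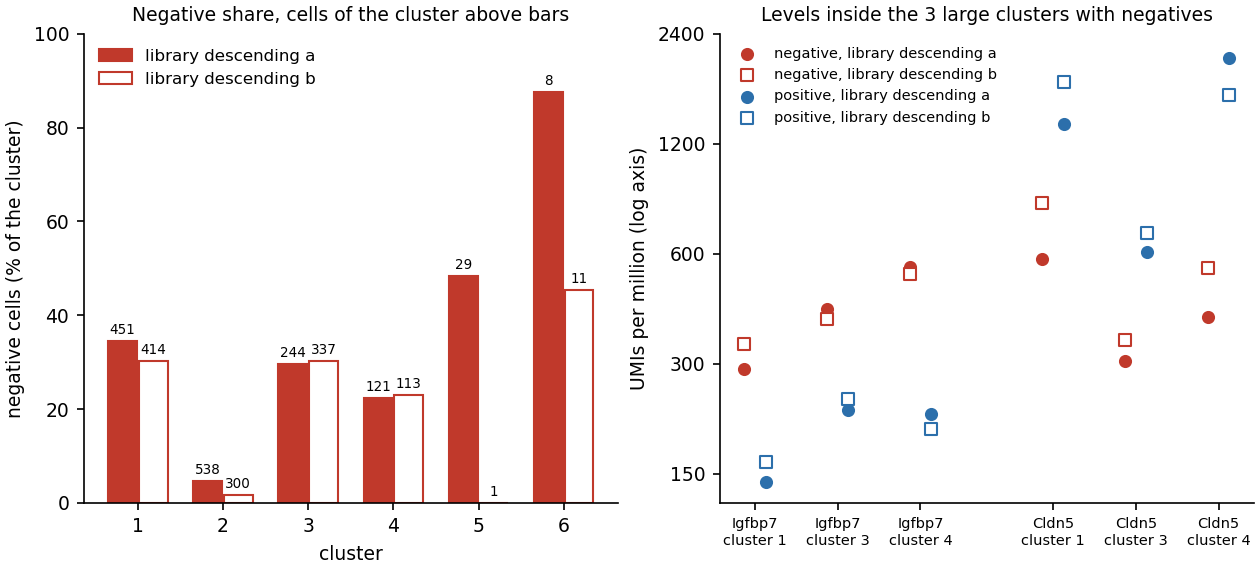
Left, negative cells as a percentage of each cluster in libraries descending a (filled bars) and b (open bars), with the number of cells above each bar. Right, CPM (log axis) of Igfbp7 and Cldn5 in negative (red) and positive (blue) cells of clusters 1, 3 and 4. Cluster 2 has the lowest share among large clusters, 4.65% and 1.67%, and both genes differ between classes in all 3 clusters shown.

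In a finer clustering into 13 groups, fine cluster 8, led by Thbs1, G0s2, Igfbp7, Gpc6 and Ahsg, was negative in 70 of 131 cells of library a (53.4%) and 56 of 79 of library b (70.9%), at medians of 4495 and 3729 UMIs. Its negative cells had 131 and 95.1 CPM of Cldn5 and 679 and 752 of Igfbp7, against 207 and 213 of Cldn5 and 470 and 567 of Igfbp7 in its positive cells. Fine cluster 7, led by Tac2, Emb and class II genes, was negative in 38.0% and 36.0% of cells. Its negative cells had 494 and 1765 CPM of Cd74, so the 2 libraries differed. Fine cluster 3, led by haemoglobin genes and Nkx2-3, was negative in 56.4% and 52.1% of its cells at the low medians of 3048 and 2481 UMIs. It held 110 of the negative cells of library a, in which Cldn5 was not lower, at 479 CPM in negative cells against 434 in positive cells. In library b, with 37 negative cells, Cldn5 was at 362 CPM in negative cells against 753 in positive cells. Igfbp7 there was at 246 and 281 CPM in negative cells against 183 and 159 in positive cells.

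The same gate in the young arch library, which the rule did not use, gave 211 negative and 800 positive cells, a negative share of 20.9% (18.4 to 23.5). Region and age cannot be told apart there, and 1 library allows no test of its own. Cldn5 was at 284 CPM in arch negative cells and 733 in arch positive cells, Igfbp7 at 942 in negative and 498 in positive cells, Frzb at 104 in negative and 44.4 in positive cells, and Podxl at 131 in negative and 306 in positive cells. Of the 361 genes called higher in the descending negative cells, 288 (79.8%) were also higher in arch negative cells, against 34.7% of all tested genes. Of 360 genes called lower with an arch value, 334 (92.8%) were lower there, against 65.3% of all. The fold changes of Cldn5 and Igfbp7 differed between arch and descending libraries by 0.16 and -0.34, which did not pass in a fit of all 6 sums (adjusted p = 0.874 and 0.172, edgeR). Arch negative cells were also the shallower class, with a median of 4935 UMIs against 7901.5 in arch positive cells.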

How the data were processed

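Single-cell libraries were made with the 10x Chromium 3' kit, per the labels' protocols, and Cell Ranger 2.1.2 and mm10 are named in the submitters' processing notes. What the authors deposited are raw UMI counts, 1 per gene and cell barcode, over 27998 genes, of which 27645 had a symbol. Doublet removal is not given in the sources used here. The members and gene lists were chosen with earlier results of these data known.

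Cells and classes were taken as described above, with levels not scaled for gene length. For the 4 descending sums, edgeR 4.0.16 in R 4.3.3 gave the quasi-likelihood test, after filterByExpr and with TMM scaling. The library was a block, which left 1 residual degree of freedom beside 34.5 prior ones. The library is the block because both classes of a library come from the same pooled mice and the same droplet run. The code was tested on simulated data. Named genes were the 5 given markers, the 15 largest rises and 15 largest falls among called genes with a mean of at least 20 CPM and the same direction in both libraries, up to 4 called members per list by smallest adjusted p, and, for clusters, genes among the 10 leading ones of each, which were not followed over the alternatives. Other list members were named after their values were seen. Clusters used 2000 variable genes, 20 principal components, 15 neighbours and the Leiden method (scanpy 1.11.5, leidenalg 0.10.2) at resolution 0.5. Gene positions are from GENCODE M21 (GRCm38). DESeq2 1.42.0, RLE factors, no filter, no block, other gates, deep cells, thinning, removal of the highest Scrublet scores (0.8% per 1000 barcodes) and an added arch pair were alternatives. Doublets were kept otherwise.

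The kept cells held 13530752 and 13061131 UMIs in descending libraries a and b and 18563991 in the arch library. The negative cells held 1291118 and 1047263 UMIs, against 7944746 and 6322717 in positive cells, so 1 CPM in the negative sums is close to a single molecule.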

Additional observations from a re-analysis of the deposited data

Results flagged for a closer look

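The difference between arch and descending libraries in the log2 fold change of negative over positive cells was tested for the named genes by edgeR over 6 sums with the library as a block. The arch group was a single library, which is assumed to vary as the descending ones do. For 24 genes this difference passed an adjusted p of 0.05, and it is given here as arch minus descending.

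The rise in negative cells was smaller in the arch, or turned, for Spon1 (-0.49), the fibrinolytic Plat (-1.20), Ahsg (-0.77) and Calcrl (-0.64). Plat had 44.1 CPM in arch negative cells and 63.9 in arch positive cells, the other way round from the descending aorta. The fall was larger in the arch for Palmd (-0.73) and Serpina1d (-1.74), whose reads are shared with near-identical copies. Thbs1 (0.62) and Edn1 (0.96) were raised further in arch negative cells. Edn1 stood at 482 CPM in arch negative cells and 197 in arch positive cells.

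Genes that fell in descending negative cells fell less, or not, in the arch. They were Col8a1 (2.03), Mylk (2.31), Tcf4 (1.05), Cp (0.96), Lmo1 (1.32), Fbln5 (1.38), Eln (0.85), Sox17 (0.57) and Cdkn1a (1.08). Fbln5 had 675 CPM in arch negative cells and 420 in arch positive cells. Col8a1 was low in both arch classes, at 11.02 CPM in negative cells and 12.01 in positive cells.

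Genes of blood cells also differed: Lyz2 (0.67), Hbb-bt (1.22), Hba-a2 (1.68), Hbb-bs (1.82), Pf4 (1.27) and Ccl5 (-7.26). In the descending libraries much of this RNA was held by few cells, and the part of such cells in these differences was not tested. The transcription factor Maf, listed with lymphatic genes, differed by 2.14.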

How the results depend on the processing

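Genes higher and lower in negative cells numbered 361 and 361. With no replicate block, that is without pairing the classes by library, they were 46 and 27, with DESeq2 66 and 67, among cells of at least 5000 UMIs 228 and 201, and with at most 1 fibroblast UMI 92 and 75. After thinning to 3000 UMIs they were 101 and 79 with classes from full counts and 234 and 214 with classes from thinned counts. The negative share was 10.5% and 10.9% in libraries a and b among cells of at least 5000 UMIs and 28.3% and 26.9% with thinned classes, and 22.4% to 21.6% leaving out either library. Resolution 1.0 gave 13 clusters. Other counts, shares and depth ratios moved less. Leaving out a library left no residual degree of freedom, so counts could not be retested.

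The direction turned for Vcam1 (-0.24), Irf7 (-0.061), Cxcl12 (-0.0057) and Ccl21a (1.18) with at most 1 fibroblast UMI, for Ccl5 (-0.22) and Fabp4 (-0.0025) in the deeper cells, for Mmrn1 (0.96) and Ccl21a (1.92) with thinned classes, and for Pf4 (-0.14), Hba-a2 (-0.23) and Hbb-bs (-0.11) without the small clusters. Of 113 named genes, 54 moved by more than 1 SE without library a and 51 without library b, beside the reversals. In library b alone Lpl (-0.084), Hba-a2 (-0.61) and Hbb-bs (-0.48) turned, against 2.22, 2.79 and 2.76 in library a. The cause was not tested. At the negative cells' median depth, low levels of single genes cannot be read per cell.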
